A study of Mus musculus with 35 samples.

Results

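Tumors of mice with a liver-driven MYC transgene were compared with liver of transgene-negative mice, to describe which growth genes were higher in the tumors and which liver and non-parenchymal genes were lower. The comparison used 9 of the 35 arrays of the series: 5 arrays titled as MYC tumor and 4 arrays titled as control of the combined lymphotoxin and MYC experiment. In the tumor mice a TRE-MYC transgene was switched on through LAP-tTA, a driver with a liver-specific promoter. Chow with doxycycline (200 mg/kg) kept MYC off up to the age of 8 weeks, and tumors were then left to form after its removal. The 5 tumors carry 5 different mouse identifiers, and their histology had been checked by the submitters. The 4 control livers came from 4 further mice that the labels call matched for sex and age. Those labels give the controls no MYC transgene, and neither the strain, the age at collection nor the doxycycline history of the controls is given in the sources used here. The same 4 controls also serve the lymphotoxin model. For a comparison with no shared array, 5 DEN tumors of mice injected with diethylnitrosamine (DEN, 10 mg per kg at 15 days, observed to 9 months) were set against their own 5 untreated control livers.

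MYC is a transcription factor that pairs with MAX and binds E-box sequences, and it is known for raising ribosome production, nucleotide synthesis and entry into the cell cycle. MAX also pairs with the MXD and MNT repressors, which compete with MYC for the same sites. In liver, hepatocytes around the portal tract and around the central vein run different metabolic programs. The central program is kept up by Wnt signals that sinusoidal endothelial cells release. Kupffer cells, stellate cells and bile duct cells make up most of the other resident cell types.

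Values are log2 intensities, so a difference of 1 is a 2-fold change, and each gene is read by its brightest probe set that carries that gene's symbol alone. Over 18820 genes, 3860 (20.5%) differed between MYC tumors and control livers at an adjusted p under 0.05 in limma, 1923 higher (10.2%) and 1937 lower (10.3%). A change of at least 1 log2 unit as well was found for 333 genes higher (1.77%) and 367 lower (1.95%), 3.72% together. All 5 tumors lay above all 4 controls for 7.85% of the genes and below them for 9.65%, 17.5% together. In the text, "rose", "fell" and "called" refer to the adjusted p, and the error beside a log2 change is its standard error. Both come from a fit to all arrays of the series, so they pool the spread of its other groups with that of these. Since whole tissue was measured, fewer cells of a type and less RNA per cell cannot be told apart.

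Several arrays stood apart before any comparison. Control liver 3 had an Xist intensity of 12.20, against 4.35 to 6.13 in the other controls and 4.21 to 5.35 in the tumors, and its Y-linked Eif2s3y was 3.88. Genes that differ between the sexes are therefore given with and without it. Tumors 2 and 5 had low Y-linked genes with low Xist (Uty 4.44 in tumor 2 and 5.35 in tumor 5), and tumor 3 had a low Eif2s3y (5.38) with Uty at 8.59. Tumor 3 also had the lowest mean correlation with the other tumors over all genes (0.980, against 0.987 to 0.988), and control liver 4 carried a high Myc. The hepatocyte markers Alb and Apoa1 were at 13.3 to 13.8 on all 9 arrays and did not separate the groups.

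The probe set for Myc (GRCm38.p6, chr15:61985341-61990361) read 8.88, 9.71, 9.56, 10.52 and 9.60 in the tumors, against 7.29, 7.31, 7.18 and 9.56 in the controls. Control livers 1, 2 and 3 lay below every tumor, and control liver 4 lay inside the tumor range. The log2 change was 1.82 ± 0.56 (3.53-fold, adjusted p = 0.0191). The exact two-sided permutation test over 5 tumors and 4 controls gave p = 0.0317, where the smallest value possible is 0.0159. Without control liver 4 the change was 2.39 (adjusted p = 0.00273). The adjusted p passed 0.05 without control liver 1 (0.0641), control liver 2 (0.0655), control liver 3 (0.0725) or tumor 4 (0.0543). Whether this probe set also reads the transgene's transcript is not given in the sources used here.

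The partners of MYC moved less. Of 21 measured members of the MYC network, 3 rose (14.3%), Myc among them, and 2 fell (9.52%). These shares are near those of all genes (10.2% and 10.3%). Max, the obligate partner, had 8.28 to 8.75 in tumors against 7.92 to 8.23 in controls, a separation without overlap that did not pass the test (log2 0.31 ± 0.13, adjusted p = 0.0857). Mxd3, a repressor of the MXD family found in dividing cells, rose by 0.43 ± 0.12. Mycl, a MYC paralog, fell by 0.56 ± 0.14, while Mnt (0.16 ± 0.09), Mxd1 (0.32 ± 0.17) and Mxd4 (0.20 ± 0.09) did not pass. The count of risers was 1 without control liver 3.

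Genes with a long record as MYC targets were partly higher. Of 32 measured, 14 rose and none fell, with a median of 0.29 against -0.02 over all genes tested. Tfrc, the transferrin receptor that brings in iron, reached 7.51 to 8.78 in tumors, against 6.24 to 7.17 in controls (log2 1.30 ± 0.36, adjusted p = 0.0103, and 0.0539 without control liver 3). Npm1, a nucleolar chaperone of ribosome assembly, was at 11.18, 11.12, 11.45, 11.34 and 11.07 in tumors, against 10.34, 10.18, 10.26 and 10.37 in controls. All tumors exceeded all controls, and the change was 0.94 ± 0.10 (1.92-fold), read by the brightest of 4 probe sets. Phb, a prohibitin of the inner mitochondrial membrane, rose by 0.85 ± 0.10, and Ncl, the nucleolin gene, by 0.52 ± 0.10. Cad, which starts pyrimidine synthesis, rose by 0.44 ± 0.13, a call lost without control liver 1 (adjusted p = 0.0819) or control liver 2 (0.0616). Odc1, the first enzyme of polyamine synthesis and a textbook MYC target, had 7.67 to 8.66 in tumors, against 8.11 to 8.47 in controls (log2 0.05 ± 0.19, adjusted p = 0.894). Cdk4, the G1 kinase, rose by 0.40 ± 0.08.

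**Figure D1:**
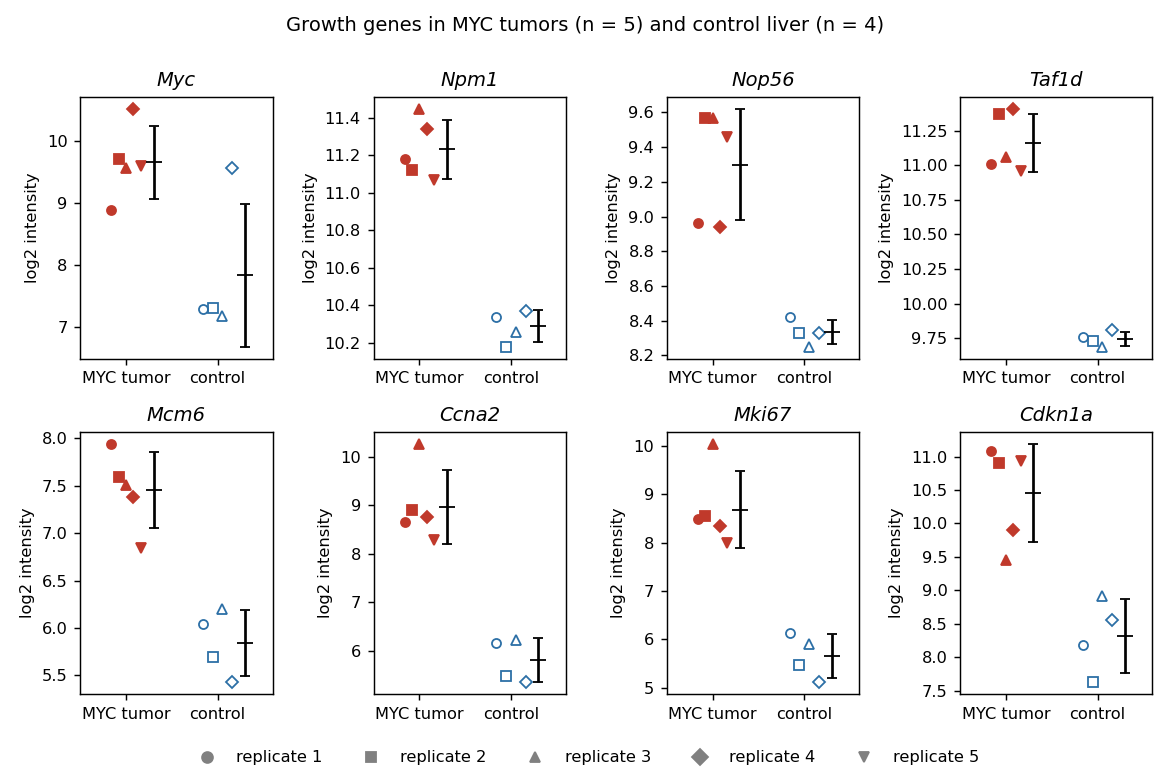
Log2 intensity of 8 genes in the 5 MYC tumors (filled, left) and the 4 control livers (open, right), with 1 symbol per replicate and the mean ± SD beside each group. Tumors and controls did not overlap for 7 of the genes, and for Myc control liver 4 (9.56) lay within the tumor range.

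Ribosome biogenesis was the broadest of the growth programs after mitosis. Of 54 measured genes for the making of ribosomes in the nucleolus, 39 rose and none fell, with a median of 0.39. Nhp2, a protein of the H/ACA particles that guide pseudouridylation, was at 8.43, 8.60, 8.30, 8.70 and 8.31 in tumors, against 7.41, 7.60, 7.10 and 7.18 in controls (log2 1.15 ± 0.16, adjusted p = 2.87e-06). Nop58 and Nop56, core proteins of the C/D particles that guide ribose methylation, rose by 1.05 ± 0.19 and 0.97 ± 0.15. None of these 3 genes overlapped between the groups. Nle1, needed for maturation of the large subunit, rose by 0.85 ± 0.09. The count lay between 30 and 39 with any 1 of the 9 arrays left out.

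MYC and MAX bind the palindrome CACGTG, the canonical E-box, which reads alike on both strands. RefSeq promoter windows (GRCm38.p6, 250 bases before to 50 after a gene's start) were found for 49 of the 54 genes, in 54 windows. Of these windows 13 (24.1%) held CACGTG, against 2349 of 32851 windows in all (7.15%) and 8.31% of the windows of genes measured here. The motif was in 10 of 42 windows of members called higher (23.8%) and in 3 of 12 windows of those not called (25%). With 12 windows in the smaller set, no conclusion is drawn on whether the motif separates them. Printed here, with the motif in capitals, are the windows of the 4 members with the largest rise among those holding CACGTG. They show where it sits relative to the start. The windows of Nhp2, Nop58 and Nop56, which rose more than these 4, held none.

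Nle1 (chr11:82908346-82908645, minus strand): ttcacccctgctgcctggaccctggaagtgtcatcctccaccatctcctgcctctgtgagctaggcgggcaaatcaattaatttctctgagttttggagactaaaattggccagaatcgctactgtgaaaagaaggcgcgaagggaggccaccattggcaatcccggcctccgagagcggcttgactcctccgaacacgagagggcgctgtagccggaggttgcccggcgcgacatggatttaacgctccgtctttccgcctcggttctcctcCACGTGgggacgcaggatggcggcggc
Nop2 (chr6:125131633-125131932, plus strand): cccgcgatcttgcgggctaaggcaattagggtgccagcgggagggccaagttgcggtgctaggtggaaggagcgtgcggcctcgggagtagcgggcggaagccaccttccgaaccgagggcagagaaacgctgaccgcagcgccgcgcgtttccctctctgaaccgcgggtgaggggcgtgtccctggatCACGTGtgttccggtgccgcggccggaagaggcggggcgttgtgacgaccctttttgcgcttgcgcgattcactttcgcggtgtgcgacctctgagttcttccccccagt
Utp4 (chr8:106893390-106893689, plus strand): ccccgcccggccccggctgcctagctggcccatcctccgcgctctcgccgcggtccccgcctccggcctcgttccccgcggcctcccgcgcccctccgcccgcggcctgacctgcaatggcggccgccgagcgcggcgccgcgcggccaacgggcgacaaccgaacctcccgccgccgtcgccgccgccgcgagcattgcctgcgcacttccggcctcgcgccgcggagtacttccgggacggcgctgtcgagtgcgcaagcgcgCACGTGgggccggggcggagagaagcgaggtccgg
Wdr43 (chr17:71615965-71616264, plus strand): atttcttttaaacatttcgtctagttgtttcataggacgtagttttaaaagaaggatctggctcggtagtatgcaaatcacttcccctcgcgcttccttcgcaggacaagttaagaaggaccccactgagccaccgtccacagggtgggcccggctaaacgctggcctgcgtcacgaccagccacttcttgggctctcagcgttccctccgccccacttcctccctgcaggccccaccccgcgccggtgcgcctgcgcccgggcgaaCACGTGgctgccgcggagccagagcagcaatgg

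The motif begins at base 274 of 300 in the Nle1 window, 266 in Utp4 and 268 in Wdr43, just past the start, and at base 191 in Nop2, ahead of it. Nop2, a methyltransferase of the large ribosomal RNA, had 7.80 to 8.45 in tumors against 7.55 to 7.59 in controls (log2 0.67 ± 0.11). Utp4, of the small-subunit processome, had 9.08 to 9.49 against 8.64 to 8.82 (0.62 ± 0.11). Wdr43, another processome protein, rose by 0.54 ± 0.13, with tumor 1 (8.02) inside the control range of 7.88 to 8.15. A match is a description of these letters and does not show binding.

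Subunits and factors of the polymerases for ribosomal RNA and tRNA rose in part. Of 29 genes for RNA polymerases I and III, 10 rose and 1 fell, and 6 rose without control liver 1 or without control liver 2. Taf1d, a subunit of the polymerase I selectivity factor, was at 11.01, 11.37, 11.06, 11.41 and 10.96 in tumors, against 9.76, 9.73, 9.69 and 9.81 in controls (log2 1.42 ± 0.10, adjusted p = 4.14e-11). Polr1c, a subunit shared by both polymerases, rose by 0.80 ± 0.07. Both genes were clear of the control range in every tumor. Taf1d was read by the brightest of 12 probe sets. Maf1, a repressor of polymerase III, fell by 0.29 ± 0.10, a call lost without any of 5 arrays (adjusted p 0.0509 to 0.103: control livers 2 and 3 and tumors 1, 2 and 5). The single fall in the list is therefore not stable to these omissions.

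Of 28 factors of translation initiation and elongation, 17 rose and none fell, and 11 rose with the compared groups alone in the fit. Eif1a, which helps the ribosome scan for a start codon, rose by 1.03 ± 0.17, Eef1b2, an exchange factor of elongation, by 0.98 ± 0.11, and Eif3e by 0.75 ± 0.10. Of 17 cytosolic aminoacyl-tRNA synthetases, which charge tRNAs, 11 rose and 1 fell. Vars rose by 0.79 ± 0.09, Iars by 0.69 ± 0.10 and Farsa by 0.63 ± 0.08. Tars, the threonine enzyme, fell by 0.86 ± 0.26, with adjusted p = 0.064 without control liver 4. The livers labelled non-tumorous liver of MYC mice averaged 8.71 for Tars, and the tumors did not differ from them by the test (0.06 ± 0.28, adjusted p = 0.908). The mitochondrial ribosome stood near the background, with 4 of 50 higher and 1 lower (2 lower without control liver 3 and 3 without tumor 2). Mrpl20, the largest riser there, had 8.33 to 8.92 in tumors against 7.38 to 7.93 in controls (0.97 ± 0.15). In the same non-tumorous livers Mrpl20 averaged 8.60, and the tumors did not differ from them by the test (0.07 ± 0.16, adjusted p = 0.82).

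Nucleotide and amino acid supply changed in parts. In purine and pyrimidine synthesis 11 of 24 rose and none fell, led by Rrm2 (1.39 ± 0.28), the small subunit of ribonucleotide reductase, and Ctps (1.03 ± 0.25), which makes CTP. In serine, glycine and folate metabolism 5 of 25 rose and 8 fell, and 5 fell without tumor 1. Asns, asparagine synthetase and a target of amino acid stress signalling, was at 9.01, 7.91, 10.70, 7.73 and 7.53 in tumors, against 5.49, 5.72, 4.92 and 6.16 in controls (3.00 ± 0.57, adjusted p = 0.000267). Every tumor was above every control, and tumor 3 was highest. The 3 livers labelled non-tumorous liver of MYC mice averaged 9.07 ± 0.96 (SD, n = 3), and the tumors did not differ from them by the test (-0.49 ± 0.62, adjusted p = 0.63). Cth, the last enzyme of cysteine synthesis, fell by 0.98 ± 0.18 and Bhmt, which remethylates homocysteine, fell by 0.62 ± 0.18. Slc7a11, the cystine importer, ranged widely over the tumors, from 4.59 to 7.42, against 3.97 to 4.23 in controls (2.02 ± 0.48).

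Cell division genes rose the most. Of 54 genes of mitosis and chromosome segregation, 50 rose and 1 fell, with a median of 1.72, and 40 rose by at least 1 log2 unit. Mki67, the proliferation marker, was at 8.48, 8.55, 10.04, 8.35 and 8.00 in tumors, against 6.13, 5.48, 5.90 and 5.12 in controls (log2 3.03 ± 0.38, 8.15-fold). Plk1, a kinase of mitotic entry, rose by 2.95 ± 0.39, Hmmr, a spindle protein, by 2.89 ± 0.39 and Top2a, topoisomerase II, by 2.36 ± 0.29. The groups were apart in each of these genes, and tumor 3 was the highest tumor in all of them. The mean level of the whole list was 6.57, 6.79, 7.57, 6.51 and 6.31 in the tumors, against 5.27, 5.06, 5.25 and 4.92 in the controls.

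The fall was in Pttg1, securin. It had 5.67, 5.75, 6.14, 6.60 and 5.96 in tumors, against 7.81, 7.87, 7.87 and 5.32 in controls (log2 -1.19 ± 0.29, adjusted p = 0.0034). Control liver 4 lay below every tumor, and without it the change was -1.83. Control liver 4 was also the control with the high Myc.

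Of 41 DNA replication genes, 19 rose and 1 fell, the fall being lost without control liver 1, 3 or 4 or tumor 1 or 5. Mcm6, of the replicative helicase, had 7.94, 7.59, 7.51, 7.38 and 6.84 in tumors, against 6.04, 5.69, 6.20 and 5.43 in controls (1.61 ± 0.25). Pole, a DNA polymerase, rose by 1.41 ± 0.18 and Prim1, a primase subunit, by 1.41 ± 0.19. In the list of G1 cyclins, CDKs and E2Fs, 15 of 27 rose and 1 fell, with 9 higher without control liver 2 or without control liver 3. Ccna2, cyclin A2, was the strongest at 8.65, 8.90, 10.27, 8.76 and 8.28 in tumors, against 6.17, 5.48, 6.22 and 5.36 in controls (3.16 ± 0.40). Ccne1, cyclin E1, rose by 1.91 ± 0.24. The livers labelled non-tumorous liver of MYC mice averaged 7.02 for Ccne1, against 5.68 in controls. The tumors did not differ from these non-tumorous livers by the test (0.57 ± 0.26, adjusted p = 0.124).

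Brakes on the cycle rose as well. Of 25 CDK inhibitors and p53 targets, 9 rose and 2 fell. Cdkn1a, the p21 inhibitor, was at 11.08, 10.91, 9.45, 9.91 and 10.94 in tumors, against 8.18, 7.63, 8.92 and 8.55 in controls (2.14 ± 0.44, 4.40-fold). Tumor 3, highest in Mki67, was lowest in Cdkn1a, though above every control. Tnfrsf10b, a death receptor under p53, rose by 1.87 ± 0.31 and Cdkn2c, an inhibitor of CDK4 and CDK6, by 1.58 ± 0.32. Of the 2 falls, 1 was lost when any of 7 arrays was left out (Ei24, log2 -0.36 ± 0.12, adjusted p up to 0.113: control livers 1, 3 and 4 and tumors 1, 3, 4 and 5).

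Fetal liver markers did not follow the growth genes. Of 26 measured oncofetal genes, 1 rose and 2 fell (1 fell without control liver 1 or tumor 2 or 5), below the shares of all genes. Afp, alpha-fetoprotein, was at 6.14, 5.54, 5.22, 5.83 and 5.44 in tumors, against 4.82, 5.15, 4.70 and 4.69 in controls, apart in every array but not called (0.79 ± 0.59, adjusted p = 0.379). That error pools the spread of all groups of the series, DEN tumors among them. The missing call therefore does not describe the MYC tumors and their controls alone. By array values, 1 of the 26 genes, Afp, was above all controls in every tumor, and 3 were below. Gpc3, glypican 3, was high in tumor 1 alone (8.73), with 4.49 to 5.91 in the other tumors and 5.05 to 5.44 in controls. Igf2 had 5.53 to 7.55 in tumors against 5.53 to 5.67 in controls (0.57 ± 0.57). Peg3, an imprinted zinc finger gene, fell by 1.80 ± 0.51. The 1 riser, Sox4, lost its call without any of 6 arrays (adjusted p 0.0582 to 0.137: control livers 2, 3 and 4 and tumors 2, 3 and 4).

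**Figure D2:**
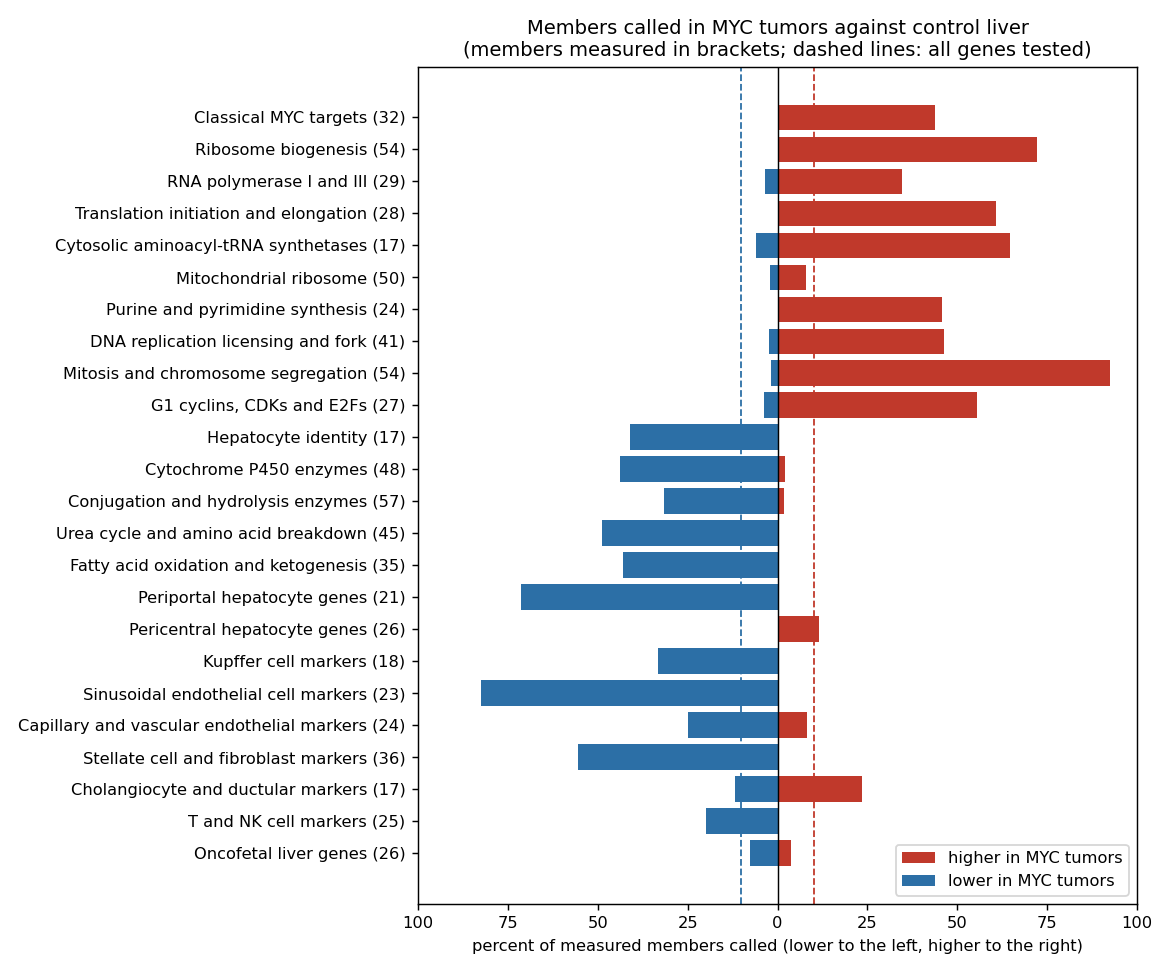
Percent of the measured members of 24 gene lists called higher (right, red) or lower (left, blue) in MYC tumors against control liver, with the shares of all genes tested as dashed lines (10.2% and 10.3%). The bars for ribosome, translation and division genes point right, and those for liver metabolism, sinusoidal endothelial cells and stellate cells point left.

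Genes of general hepatocyte identity were lower in part. Of 17, 7 fell (41.2%) and none rose, and 4 fell without control liver 1, 2 or 4 or without tumor 5. The list mean was 12.78 to 13.13 in tumors, against 13.14 to 13.19 in controls. Alb, albumin, was at 13.77, 13.66, 13.68, 13.74 and 13.75 in tumors, against 13.62, 13.66, 13.76 and 13.72 in controls (0.03 ± 0.05). Apoa1 (0.00 ± 0.06), Ttr (-0.09 ± 0.05) and the transcription factor gene Hnf4a (-0.10 ± 0.08) did not pass the test either. Apart from Hnf4a, at 11.95 to 12.14 in controls, these intensities are near the upper end of the arrays, at 14.3, where differences can be compressed. Among 28 hepatocyte transcription factors 7 fell and 1 rose, the rise being lost without control liver 1, 2 or 3 or tumor 2, 4 or 5. Cebpa, a factor of hepatocyte quiescence, had 9.41 to 10.36 in tumors against 10.43 to 10.57 in controls (-0.70 ± 0.17), and Esr1, the estrogen receptor, fell by 1.86 ± 0.49.

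Cytochrome P450 genes, for the oxidation of drugs and steroids, showed 21 falls and 1 rise among 48. Cyp2b10, the classic target of the receptor CAR, was at 4.59, 4.58, 4.67, 3.94 and 4.16 in tumors, against 8.87, 9.10, 11.61 and 8.20 in controls (log2 -5.06 ± 0.64, 33.3-fold lower). Control liver 3 was the highest control, and the change was -4.33 without it. Cyp17a1, of steroid synthesis, had 5.23 to 8.38 in tumors against 9.50 to 11.62 in controls (-4.13 ± 0.73, and -3.85 without control liver 3). The livers labelled non-tumorous liver of MYC mice averaged 7.86 for Cyp17a1, and the tumors did not differ from them by the test (-1.22 ± 0.80, adjusted p = 0.301). Both genes are on the list of female-biased liver genes. Cyp4a14, a fatty acid hydroxylase under PPAR alpha, fell by 3.53 ± 0.83, and by 4.24 without tumor 5, whose level of 11.51 was close to the controls. The non-tumorous livers averaged 8.21 for Cyp4a14, and the tumors did not differ from them by the test (0.46 ± 0.90, adjusted p = 0.769).

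Several sex-biased genes depended on control liver 3. Of 18 female-biased genes 5 fell (27.8%), with 4 falling without that array. Of 21 male-biased genes 3 fell (14.3%), with 4 falling without it, 1 without control liver 1 and none without control liver 2. In all genes 10.3% fell, and no member of either list rose. Cyp2b10 and Cyp17a1 stayed called without control liver 3 (adjusted p = 1.04e-05 and 0.00102). Cyp4a12a, a male enzyme, was at 12.66 to 12.95 in tumors, against 12.65, 12.58, 6.15 and 12.36 in controls, where the 6.15 is control liver 3 (1.81 ± 1.24, and 0.21 without it). Cyp2d9, also male-biased, had 11.20 to 11.58 against 11.70, 11.66, 7.63 and 11.83, and its change of 0.71 ± 0.83 was -0.31 without control liver 3. Cyp2b13, a female enzyme, had 4.11 to 6.38 against 6.30, 6.13, 12.12 and 5.89 (-2.35 ± 1.21, and -0.85 without control liver 3). None of these 3 was called. Cyp2b9, a female-biased gene with an adjusted p of 0.0476, lost its call without control liver 3 (0.161), control liver 1 (0.0952), control liver 2 (0.0823), tumor 2 (0.0703), tumor 4 (0.133) or tumor 5 (0.102). Probe sets of near-identical Cyp2b and Cyp2c genes can share signal.

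Other liver enzymes were lower in part of each list. In conjugation and hydrolysis 18 of 57 fell and 1 rose, and 4 rose without tumor 3. Ugt3a1 was at 8.86, 8.72, 9.64, 10.03 and 9.33 in tumors, against 11.40, 11.60, 11.48 and 11.66 in controls (-2.22 ± 0.24), and Sult2a8, a bile acid sulfotransferase, fell by 2.13 ± 0.44. Of 36 genes of bile acid synthesis and transport 9 fell and 2 rose, with 1 riser left without any of 7 arrays (all 4 control livers and tumors 1, 2 and 5). Slco2b1, an organic anion transporter, fell by 2.01 ± 0.26 and Slco2a1, a prostaglandin transporter, fell by 2.36 ± 0.41. In fatty acid oxidation 15 of 35 fell and none rose, among them Acaa1b (-1.24 ± 0.27), a peroxisomal thiolase. In fatty acid and triglyceride synthesis 9 of 31 fell and 1 rose. Mogat1, an acyltransferase, fell by 2.29 ± 0.33, while Acsl4 rose by 0.86 ± 0.18. Acss2, which makes acetyl-CoA from acetate, was at 10.06, 5.36, 9.47, 9.48 and 9.83 in tumors, against 11.82, 11.69, 10.73 and 11.21 in controls. Its change of -2.53 ± 0.54 was -1.66 without tumor 2.

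Amino acid breakdown and the periportal program overlapped in members and fell together. Of 45 urea cycle and amino acid breakdown genes 22 fell and none rose, and of 21 periportal genes 15 fell and none rose. Hal, histidine ammonia lyase, was at 9.08, 6.61, 11.29, 8.95 and 9.40 in tumors, against 11.87, 12.29, 12.28 and 12.02 in controls (-3.05 ± 0.72, adjusted p = 0.0027). The lowest tumor, tumor 2, carried part of this, since the change was -2.43 without it. Arg1, the arginase of the urea cycle, had 10.09, 9.38, 12.14, 9.81 and 10.41, against 12.07, 12.29, 11.94 and 11.98 (-1.70 ± 0.37). Tumor 3 lay within the control range, and the other tumors lay below it. Uroc1, the next enzyme after Hal, fell by 2.12 ± 0.42 with the same tumor at control level (10.83). Sult5a1, a sulfotransferase, was low in tumor 3 as well, at 4.64 to 4.94 in all 5 tumors, against 7.47 to 8.05 in controls (-2.93 ± 0.59).

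Tumor 3 differed from the other tumors in the zonation genes as a whole. The mean level of 26 pericentral genes was 10.98, 10.90, 8.12, 10.69 and 10.91 in the tumors, against 9.97, 9.94, 9.85 and 9.80 in the controls. Tumor 3 was thus below every control, and the other tumors were above them. In tumor 3, 19 of the 26 genes lay below all controls and none above, whereas in the other tumors 21 or 22 lay above all controls and none below. For the 21 periportal genes the mean was 9.92, 9.27, 11.37, 9.87 and 10.28, against 11.32, 11.47, 11.50 and 11.25. In tumor 3, 8 periportal genes were below all controls and 5 were above, while in the others 18 to 20 were below.

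The genes behind these means included several direct Wnt targets, chosen for display after their values were seen. Glul, the glutamine synthetase of pericentral cells, was at 13.49, 13.43, 9.41, 13.45 and 13.52 in tumors, against 12.90, 12.88, 12.65 and 12.45 in controls. Lgr5, a receptor gene in Wnt signalling, was at 10.18, 9.85, 5.21, 9.84 and 10.16, against 8.40, 8.50, 7.94 and 8.66. Axin2, a feedback inhibitor of Wnt signalling, was at 8.60, 8.57, 5.43, 7.90 and 8.36, against 6.97, 6.68, 6.75 and 6.27. In all 3 genes tumor 3 lay below every control and the other tumors exceeded every control. Slc1a2, a glutamate transporter, had 6.25 in tumor 3, with 11.40 to 12.12 in the others, against 10.37 to 10.64 in controls. Oat had 8.12 in tumor 3 and 12.53 to 13.03 in the others, against 12.22 to 12.41, and Tbx3 had 6.81 and 9.35 to 10.12, against 7.97 to 9.10. Cyp1a2 had 9.37 in tumor 3 and at least 12.79 in the others, against 12.10 to 12.78. Cyp2e1, the ethanol-oxidising enzyme, had 11.72 in tumor 3 and 13.45 to 13.55 in the others, against 13.37 to 13.51.

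These opposing values bear on the calls. Of the 26 pericentral genes 3 rose with all tumors in the fit, Slc1a4 (2.09 ± 0.54), Znrf3 (0.81 ± 0.24) and Sp5 (0.80 ± 0.23), and none fell. Without tumor 3, 11 rose, among them Rhbg, an ammonia transporter (2.69, adjusted p = 0.00139, against 1.68 and 0.132 with it), Nkd1 (1.74, adjusted p = 4.15e-06) and Axin2 (1.69, adjusted p = 0.00827). The change of Glul was -0.05 ± 0.58 with tumor 3 and 0.76 (adjusted p = 0.197) without it. Of the periportal genes 19 fell without tumor 3, Hsd17b13 (-1.55, adjusted p = 0.00408) and Aldh1b1 (-1.71, adjusted p = 0.0224) among the additions. Cdh1, the E-cadherin of periportal cells, was at 9.23 in tumor 3, with 4.39 to 6.61 in the other tumors, against 6.14 to 7.66 in controls. Cyp2c39, the single P450 that rose (2.57 ± 0.83), was at 7.49 in tumor 3 and 11.91 to 12.20 in the others, against 7.78 to 9.77, and its change was 3.49 without tumor 3. Its call was lost without any of 7 arrays (adjusted p 0.0574 to 0.0799: tumors 1, 2, 4 and 5 and control livers 1, 2 and 4).

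**Figure D3:**
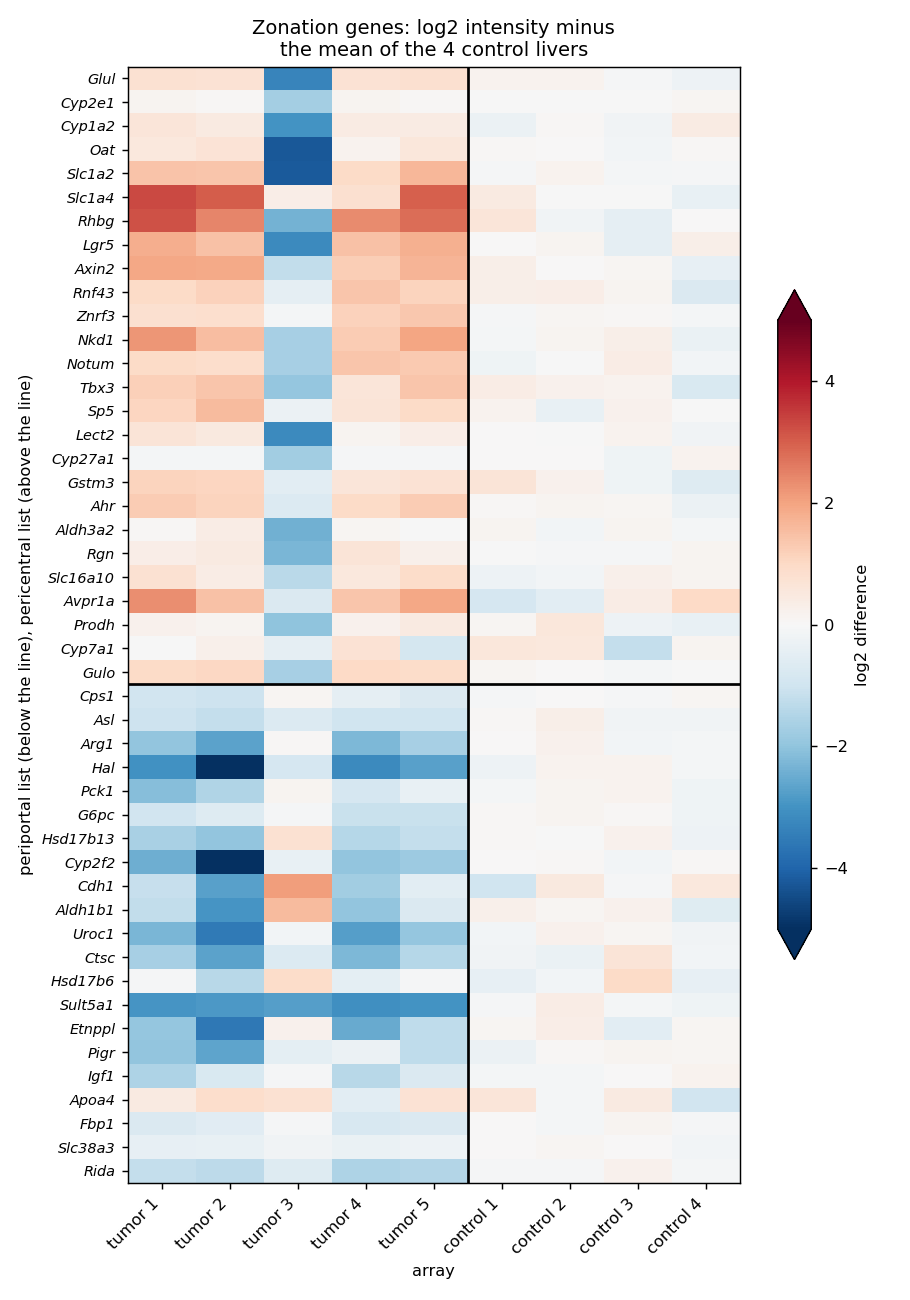
Log2 intensity of 26 pericentral genes (above the line) and 21 periportal genes (below it) in each of the 5 MYC tumors and 4 control livers, minus the mean of the 4 controls (red higher, blue lower, colours saturate at 5). Tumor 3 is mostly blue in the pericentral block, where its median difference is -1.68. Its periportal block is mixed, with a median of -0.06, 8 genes below all controls and 5 above. The other tumors are mostly red in the pericentral block and mostly blue in the periportal block.

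Among called genes, those with the largest spread over the tumors included others. Uncalled zonation genes spread as widely, with a tumor SD of 2.50 for Slc1a2 and 2.28 for Rhbg, against 2.39 for Raet1e. Raet1e, a ligand of the NK receptor NKG2D, was at 5.73, 4.34, 10.76, 6.96 and 6.76 in tumors, against 10.32, 9.92, 10.74 and 10.24 in controls (-3.39 ± 0.78). Its change was -2.75 without tumor 2 and -4.36 without tumor 3. The livers labelled non-tumorous liver of MYC mice averaged 8.32 for Raet1e. The tumors did not differ from these livers by the test (-1.41 ± 0.85, adjusted p = 0.253). Meg3, an imprinted non-coding RNA, was at 10.74, 9.08, 5.18, 9.81 and 9.27, against 5.74, 6.51, 5.64 and 6.43 (2.73 ± 0.76, and 3.64 without tumor 3). Tumor 3 was the single array at control level in both, with Raet1e high and Meg3 low. Gpx2, a glutathione peroxidase, was at 9.38, 8.18, 5.09, 4.79 and 9.28, against 4.06, 4.63, 4.48 and 4.45 (2.94 ± 0.78, and 3.58 without tumor 4). It was thus high in tumors 1, 2 and 5, as were Slc7a11 (7.42, 6.38 and 6.91 there) and Sbspon (8.82, 6.54 and 7.76 there, against 3.98 and 4.34 in the remaining tumors). The call on Sbspon (2.03 ± 0.61) was lost without tumor 1 (adjusted p = 0.0667) or tumor 5 (0.0597).

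Non-parenchymal genes were lower in the tumors, most of all those of the sinusoid. Of 23 sinusoidal endothelial markers 19 fell and none rose, with a median of -0.96, and the list mean was 7.27 to 7.84 in tumors against 8.49 to 8.70 in controls. Rspo3, which boosts Wnt signals at the central vein, was at 5.89, 5.28, 5.41, 6.02 and 5.29 in tumors, against 7.58, 7.39, 7.44 and 7.51 in controls (-1.90 ± 0.22, 3.73-fold lower). Wnt2, a sinusoidal Wnt ligand, had 4.84 to 5.00 against 6.05 to 6.33 (-1.27 ± 0.18), and Bmp2, which induces hepcidin, fell by 1.64 ± 0.36. All 3 were below the controls in every tumor, including the 4 tumors with high pericentral genes. Stab2, a scavenger receptor, was at 8.91, 8.43, 9.03, 9.04 and 9.01, against 9.48, 9.54, 9.82 and 9.62 (-0.73 ± 0.22), a call lost without control liver 3 (adjusted p = 0.0617) or tumor 2 (0.0596). Lyve1 was among the 4 markers not called (-0.30 ± 0.33).

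Markers of other vessels were mixed, with 6 of 24 lower and 2 higher, and 3 lower without tumor 5. Plvap, of the fenestral diaphragm, had 6.76 to 7.95 in tumors against 8.25 to 9.08 in controls (-1.42 ± 0.18), and Eng, endoglin, fell by 1.05 ± 0.16. Esm1, a tip cell gene, went the other way, at 7.81, 8.09, 7.42, 6.74 and 7.32 in tumors, against 5.43, 5.41, 4.97 and 5.08 in controls (2.26 ± 0.31). A single riser remained in the list without tumor 2 or control liver 1, 2 or 4.

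Of 36 stellate cell and fibroblast markers 20 fell and none rose. Colec10, a collectin of stellate cells, was at 7.40, 5.32, 5.49, 6.81 and 6.05 in tumors, against 8.96, 8.61, 8.99 and 8.88 in controls (-2.65 ± 0.39). Lrat, which stores vitamin A, was at 9.00, 7.24, 6.87, 7.87 and 6.94, against 9.67, 9.24, 9.62 and 9.39 (-1.89 ± 0.31). Ecm1, an extracellular matrix protein, fell by 2.57 ± 0.38 and Dcn, decorin, fell by 1.95 ± 0.29. Hgf, the hepatocyte growth factor that these cells make, fell by 1.57 ± 0.28. Each of these 5 genes was below the controls in all tumors, and tumor 1 was the highest tumor in each. Neither of a pair of genes of activated stellate cells was called. Col1a1, the main fibrillar collagen, had 6.33 to 6.83 in tumors against 6.13 to 6.85 in controls (0.14 ± 0.34), and Acta2, smooth muscle actin of activated cells, had 6.65 to 8.48 against 6.98 to 7.61 (0.56 ± 0.48).

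Kupffer cell markers divided. Of 18, 6 fell and none rose. Folr2, a folate receptor of resident macrophages, was at 5.85, 5.72, 5.22, 5.94 and 6.13 in tumors, against 8.39, 8.37, 8.65 and 8.33 in controls (-2.66 ± 0.29, 6.32-fold lower). Cd163, the hemoglobin scavenger receptor, fell by 1.98 ± 0.39 and Csf1r, the receptor that keeps macrophages alive, fell by 0.96 ± 0.21. Clec4f, which is specific to mouse Kupffer cells, was at 9.40, 7.43, 8.21, 8.98 and 9.19, against 9.41, 9.47, 9.97 and 9.54 (-0.96 ± 0.44, adjusted p = 0.127), and Vsig4 did not pass (-0.90 ± 0.46). In both genes tumor 2 was lowest.

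Immune and duct genes gave small counts of calls. Of 25 T and NK cell markers 5 fell (20%, against 10.3% of all genes) and none rose. The falls numbered 1 to 7 with an array left out (1 without control liver 1 or 3, and 3 without control liver 2 or tumor 2, 3 or 4). All 25 changes were negative, from -1.10 to -0.15. In every tumor 10 of these markers lay below all controls, against 9.65% of all genes. Their list mean was low, at 4.67 to 4.82 in tumors and 4.90 to 5.29 in controls. Of 17 duct markers 4 rose (23.5%) and 2 fell (11.8%), with 2 risers without control liver 2 or 4. By array values 3 duct markers lay above all controls in every tumor and 5 lay below. Elf3, an epithelial factor, rose by 1.25 ± 0.23, while Pkhd1, the fibrocystin gene of bile ducts, fell by 1.49 ± 0.26 and the duct keratin Krt19 was not called (-0.43 ± 0.17). Of 33 interferon response genes 4 rose (12.1%) and 6 fell (18.2%), against 10.2% and 10.3% of all genes. Gbp7, a guanylate-binding protein, had 5.69 to 6.23 in tumors against 7.66 to 8.71 in controls (-2.07 ± 0.27), and Psmb8, of the immunoproteasome, fell by 1.18 ± 0.19. Usp18, which dampens interferon signalling, rose by 1.42 ± 0.36.

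**Figure D4:**
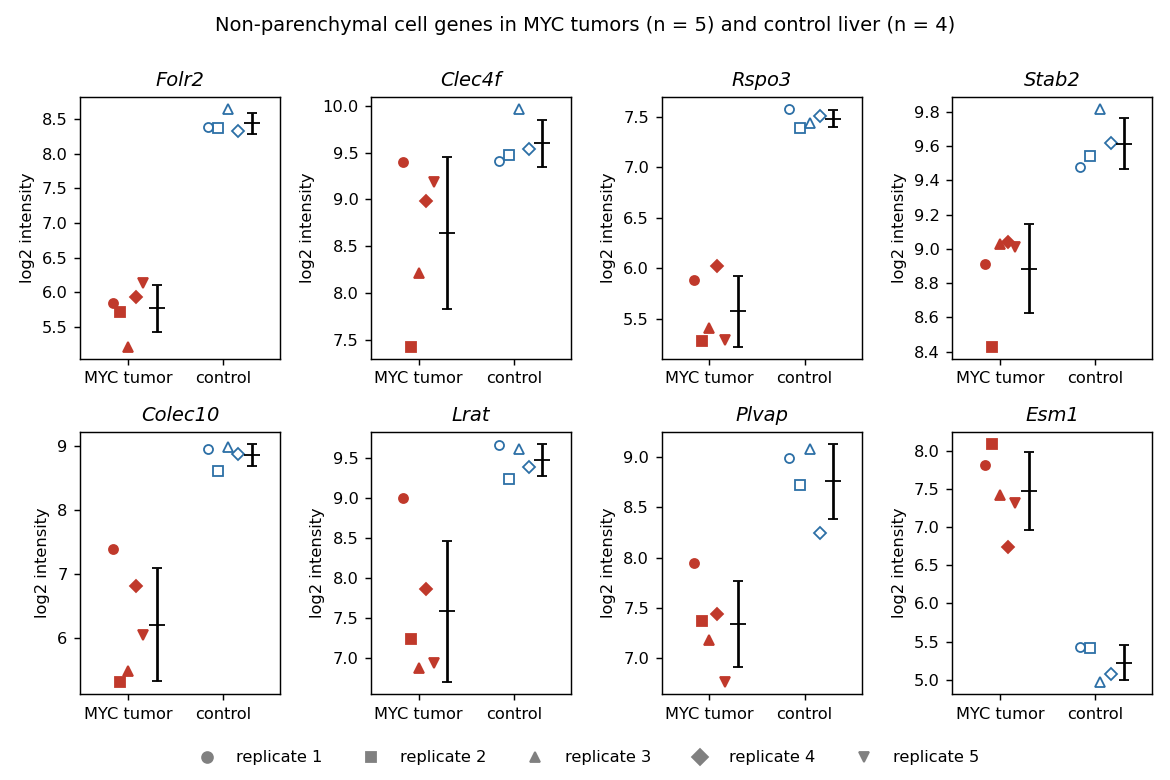
Log2 intensity of 8 non-parenchymal genes in the 5 MYC tumors (filled, left) and 4 control livers (open, right), with 1 symbol per replicate and mean ± SD. Folr2, Rspo3, Stab2, Colec10, Lrat, Clec4f and Plvap are lower in all tumors, by -0.73 (Stab2) to -2.66 (Folr2) on average, with Clec4f not called, and Esm1 is higher.

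Some of the largest changes belonged to none of these programs. H2-Ea, the alpha chain of the class II molecule I-E (chr17:34341952-34344645), was at 9.65, 8.85, 9.41, 9.10 and 9.59 in tumors, against 4.75, 4.32, 4.67 and 4.67 in controls (4.72 ± 0.34, 26.3-fold). Other class II genes went the opposite way. H2-Ab1 had 7.63 to 8.41 against 8.96 to 10.01 (-1.47 ± 0.38) and was clear of the controls in every tumor. Of 11 class II genes 5 fell and 1, H2-Ea, rose, with 1 to 3 falling without control liver 1 or 3 or tumor 2, 3 or 4. Ctse, cathepsin E, was at 10.45 to 10.92 in tumors against 5.51 to 6.26 in controls (4.65 ± 0.54). Both H2-Ea and Ctse were also high in the 3 livers labelled non-tumorous liver of MYC mice, whose identifiers begin with WT, at 8.18 ± 0.43 and 9.92 on average (SD, n = 3). With no strain in the labels, mouse line and tumor cannot be told apart for these genes. That limit holds for every other change from these controls, since the transgene differs between the groups and the line may differ.

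Cplane1 was not raised in the non-tumorous livers, at 5.74 on average. It was at 10.37, 9.39, 9.85, 11.47 and 8.23 in tumors and 5.99 to 6.32 in controls (3.73 ± 0.33). These values are from the brightest of 3 probe sets annotated to Cplane1, and the others were not examined singly. D17H6S56E-5 behaved likewise, at 9.39 to 10.51 in tumors against 5.69 to 6.27 in controls (3.95 ± 0.39) and 5.99 on average in the non-tumorous livers. Tinag, a matrix protein of basement membranes, rose by 2.89 ± 0.43 and averaged 4.01 in the non-tumorous livers and 4.06 in controls. Dsg1c, a desmoglein of cell junctions, rose by 3.38 ± 0.56 and Igsf23 by 3.35 ± 0.57. In the non-tumorous livers Dsg1c averaged 7.30, against 5.72 in controls, and Igsf23 averaged 7.78, against 6.34 in controls. Among the falls outside the P450 genes, Gtf2ird1, a transcription factor gene, was the tightest, at 5.16, 4.96, 5.22, 4.78 and 4.92 in tumors, against 8.39, 8.38, 8.52 and 8.77 in controls (-3.51 ± 0.16, adjusted p = 1.56e-15). Dio1, the deiodinase that activates thyroid hormone, fell by 3.62 ± 0.55 and Cda, cytidine deaminase, fell by 3.19 ± 0.29. Plekhb1 (-3.66 ± 0.29) and Acss3 (-3.42 ± 0.50) fell as well. The non-tumorous livers averaged 8.13 for Plekhb1 and 7.11 for Acss3, against 9.39 and 9.19 in controls. The tumors were lower than the non-tumorous livers in Plekhb1 (-2.39 ± 0.31, adjusted p = 2.31e-06). In Acss3 they did not differ from those livers by the test (-1.33 ± 0.54, adjusted p = 0.0789). Adh6-ps1 fell by 4.63 ± 0.60. Cidea, a lipid droplet protein, had 3.65 to 4.21 in tumors, against 9.82, 8.87, 3.96 and 8.13 in controls, with control liver 3 at the tumor level. The non-tumorous livers averaged 3.92, also at the tumor level (tumor minus non-tumorous liver 0.06 ± 0.64, adjusted p = 0.963). The change of Cidea from controls of -3.72 ± 0.59 was -4.97 without control liver 3 and -3.01 without control liver 1.

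The change in MYC tumors was set against the change in DEN tumors, to see which changes differed from those of another liver tumor. Each change was taken from the controls of its own experiment. Any difference in line or doxycycline history between MYC tumors and controls is part of the MYC change. The difference was called for 3600 genes (19.1%), 1829 with a higher change in MYC (9.72%) and 1771 with a lower one (9.41%). In the DEN comparison itself 15% of all genes were higher and 15.6% lower. Of the 5 DEN controls 1 also had a high Xist (12.02), so counts are given without that array and without control liver 3 where they lead.

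Ribosome biogenesis set the models apart. In DEN tumors 1 of the 54 genes rose and 8 fell, against 39 and none in MYC tumors, and the difference of the changes was called higher in MYC for 33 and lower for none (26 without control liver 3 and 26 without the high-Xist DEN control). Nhp2 changed by 1.15 in MYC tumors and -0.40 in DEN tumors (difference 1.54, adjusted p = 6.03e-06), and Taf1d by 1.42 and -0.07 (difference 1.48, adjusted p = 8.14e-09). For the mitochondrial ribosome, 36 of 50 genes were lower in DEN tumors and 1 in MYC tumors, and the difference was called higher in MYC for 26 (22 and 24 without those arrays). Phb, of the mitochondrial inner membrane, changed by 0.85 and -0.49 (difference 1.34). Mitosis genes rose in both tumors, 50 of 54 in MYC and 48 in DEN, with a called difference for 5 (3 without either array, and 3 to 20 over all single arrays left out).

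Oncofetal, vascular and duct genes ran the other way. Of the 26 oncofetal genes 14 rose in DEN tumors and 1 in MYC tumors, and the difference was called lower in MYC for 14 (12 without control liver 3, 14 without the DEN control). Afp changed by 0.79 in MYC tumors and 5.45 in DEN tumors (difference -4.66, adjusted p = 0.000112), and Gpc3 by 0.56 and 5.41 (difference -4.85, adjusted p = 0.00175). Of the vascular markers 18 of 24 rose in DEN tumors and 2 in MYC tumors, with a lower change in MYC called for 16 (13 without either array). Plvap changed by -1.42 and 0.68 (difference -2.10, adjusted p = 3.19e-07). Duct markers rose in 14 of 17 in DEN tumors and 4 in MYC tumors, with 9 differences called lower (6 and 9), and Pkhd1 changed by -1.49 and 0.87.

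Liver enzymes were lower in both tumors, to a different extent by list. In conjugation and hydrolysis 36 of 57 were lower in DEN tumors and 18 in MYC tumors, and 21 differences were called higher in MYC (18 without control liver 3, 23 without the DEN control and 30 without tumor 3). In fatty acid oxidation the counts were 26 and 15 of 35, with 16 differences higher. Ugt3a1 changed by -2.22 in MYC tumors and -3.72 in DEN tumors. For stellate cell markers 10 rose and 12 fell in DEN tumors, against none and 20 of 36 in MYC tumors.

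**Figure D5:**
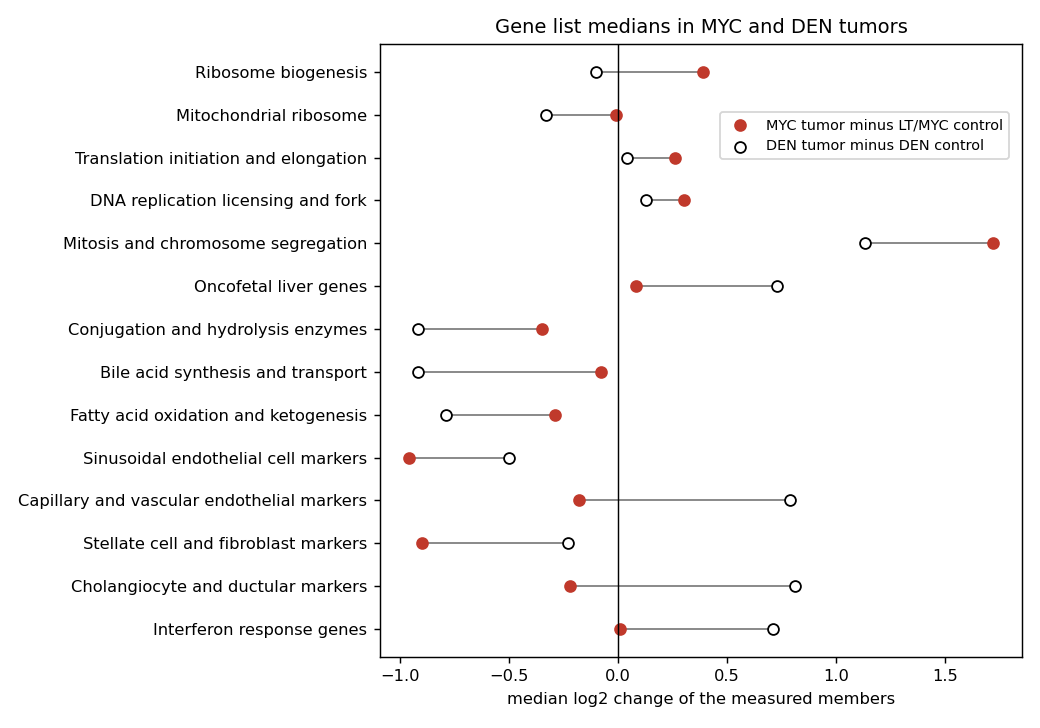
Median log2 change of the measured members of 14 gene lists in MYC tumors against their controls (filled red) and in DEN tumors against their own controls (open), joined by a line. The ribosome biogenesis median is 0.39 in MYC and -0.10 in DEN tumors, and the oncofetal median is 0.08 in MYC and 0.73 in DEN tumors.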

How the data were processed

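RNA of dissected mouse liver tissue was measured on Affymetrix arrays, 1 per sample. The deposited log2 intensities were made by the authors with RMA, per the submitters' processing notes; the version is not given in the sources used here. The arrays hold 35556 probe sets. A single symbol was annotated to 21218 of them, more than 1 to 1881 and no symbol to 12457, and the brightest single-symbol probe set was kept for each of 18820 genes (1386 had several). Array medians were 5.59 to 5.73. Arrays have no read depth, so their number limits the precision.

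Groups came from the titles. limma 3.58.1 (R 4.3.3) was fitted to all 35 arrays with 1 coefficient for each group, with eBayes and Benjamini-Hochberg adjustment over all genes, and genes were called at an adjusted p under 0.05. Errors of log2 changes are standard errors. Fits were tested on simulated data. Nothing says more than that samples are separate mice, so p-values measure the spread between samples. That spread is pooled over all groups of the fit, and is not that of MYC tumors and their controls alone. For Sult5a1 the SD was 0.12 in MYC tumors and 0.25 in controls, with a standard error of 0.59. For Cplane1 the SDs were 1.20 and 0.15, with a standard error of 0.33. MYC tumor and control samples share replicate numbers but not mice, and the deviations of same-numbered samples correlated by 0.007 to 0.065, so the numbers were not taken as pairs.

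The 45 gene lists (1236 of 1392 entries measured) and the members were chosen with earlier results of these data known. Named genes are the 12 largest called rises and falls, up to 3 called members per list in its main direction and 1 in the other, a fixed set with Myc, Alb and Afp, the 6 called genes with the largest spread over tumors, and the 5 largest differences from DEN each way. The rankings skipped predicted genes, clones, and genes of histones, antigen receptors, olfactory receptors and Mup proteins. Further members of the zonation, sex and cell type lists were chosen after their values were seen. Alternatives were another model, array centring, a dim-gene filter, mean probe sets, array weights, a replicate block and each array left out.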

Additional observations from a re-analysis of the deposited data

Results flagged for a closer look

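Single arrays that stood far from the rest of their group were found for 41 of the group levels examined over 210 followed genes, 25 among tumors and 16 among controls. Chance gives about 1 in 20 groups, and over all genes the shares were 7.4% and 5.7%. Part of the followed genes were chosen because an array stood apart, so this number supports nothing.

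Tumor 3 accounted for 18 of the 25 among tumors. It was low in Glul (9.41), Cyp2e1 (11.72), Lgr5 (5.21), Axin2 (5.43), Nkd1 (5.68), Oat (8.12), Slc1a2 (6.25), Rhbg (5.90), Cyp1a2 (9.37), Tbx3 (6.81) and Cyp2c39 (7.49). It was high in Mki67 (10.04), Cdkn2c (8.79), Cyp2u1 (8.61), Abcd2 (9.48), Golm2 (7.07), Rdh16f2 (10.45) and Hsd17b13 (11.84). Tumor 2 was low in Acss2 (5.36), Ehd3 (8.46) and Stab2 (8.43) and high in Cyp4a12a (12.95). The others were a low Ccne1 in tumor 4 (6.59), a high Max in tumor 5 (8.75) and a high Lyve1 in tumor 1 (8.88).

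Among controls, control liver 3 was low in Cyp4a12a (6.15), Cyp2d9 (7.63), Cyp8b1 (10.22) and Cyp2u1 (7.20) and high in Cyp2b13 (12.12). Control liver 4 was high in Myc (9.56), Foxa1 (10.14), Mbl1 (11.06), Hnf4a (12.14), Apoa1 (13.49) and Cyp2e1 (13.51) and low in Pttg1 (5.32), Tbx3 (7.97) and Aldh1b1 (7.69). Control liver 2 was low in Ehd3 (10.73) and high in Slc1a2 (10.64).

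The change in MYC tumors differed from that in DEN tumors for 3600 genes in limma. Among genes also called in MYC tumors against control liver, the largest differences upward, by the naming rule, were in Ctse (5.05, adjusted p = 1.25e-05), H2-Ea (4.91), Cyp2c39 (4.21), Vtcn1 (3.80) and Cplane1 (3.43). Those downward were in Cidea (-6.83, adjusted p = 5.49e-07), Cyp2b9 (-6.60), Abcd2 (-4.58), Golm2 (-4.57) and Rdh16f2 (-4.39).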

How the results depend on the processing

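With the replicate number as a block, 2015 genes were called (918 higher, 1097 lower), and 1838 of them were among those of the fit without it. Ribosome biogenesis then had 14 members higher, polymerases I and III 4, translation factors 7, tRNA synthetases 5 and G1 genes 9, while fatty acid oxidation had 8 and periportal genes 7 lower. Same-numbered tumors and controls come from different mice, their deviations correlated by 0.007 to 0.065, and only number 1 correlated best with its own number. With the compared groups alone in the fit, 3209 genes were called, 2843 of them among those of the main fit, and 11 translation factors rose. With each of 9 arrays left out, 3055 to 3780 genes were called, polymerase I and III genes higher numbered 6 to 11 and G1 genes 9 to 13. Of 210 genes followed, 175 were called and 48 lost the call without at least 1 array. No called gene reversed, and 9 uncalled ones did. Odc1 was -0.02 with the mean of probe sets, -0.0014 with the block and -0.03 to 0.22 without single arrays. Apoa1 was -0.02 with array weights and -0.03 to 0.03 without single arrays. Glul was 0.16 with the mean of probe sets, 0.23 with array weights and -0.27 to 0.76 without single arrays. Slc1a2 was -0.12 with the block and -0.12 to 1.35 without single arrays. Cyp1a2 was 0.15 with array weights and -0.43 to 0.48 without single arrays. Without single arrays Gpc3 was -0.17 to 0.89, Cyp2e1 -0.36 to 0.09, Oat -0.73 to 0.49 and Cyp2d9 -0.31 to 1.09. The cause was not tested beyond the arrays named in the text. Dim probe sets, near the lower end of the arrays, limit what can be seen for low genes.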
